A study of Rattus norvegicus with 12 samples.

Results

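N6-methyladenosine (m6A) is a methyl mark on adenosines inside messenger RNA. It is written during transcription by a complex built around Mettl3 and Mettl14, can be removed by Fto and Alkbh5, and is bound by reader proteins of the Ythdf and Ythdc families that influence how long a transcript lasts, how it is spliced and how it is translated. In mammals the mark is known to favour long internal exons and the region around the stop codon, and to be sparse on short, stable housekeeping messages. The values below describe which transcripts of the untreated rat esophagus carried m6A peaks and which did not, among genes with a like number of input reads.

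The group is NC, esophageal tissue of rats given no treatment, with 3 m6A-immunoprecipitated libraries (IP, antibody m6A) and 3 input libraries (no antibody) numbered 1 to 3. It is the control group of a study whose other rats had an esophagoduodenostomy, and those libraries were not used here. The labels give no strain, age or sex, and do not say whether the replicates came from separate animals, so an SD here is the spread between 3 samples and may be technical. Each IP library had its own peak list with 16644, 18864 and 17311 peaks, and the inputs held 11213531, 16863737 and 14686281 counted reads. A gene was called methylated if its name had a peak in all 3 NC lists and unmethylated if it had a peak in none. Of 17186 genes with a symbol of their own, 12964 reached a mean of at least 1 CPM (counts per 1000000 reads counted) in the inputs. Of these, 7103 were methylated, which is 54.8%, and 4072 were unmethylated, which is 31.4%. The other 1789 genes (13.8%) had a peak in 1 list (962 genes) or 2 lists (827 genes). With 1 group and no samples to set against it, no test was run, and every comparison below is a description.

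The tissue fitted its label. Krt4 and Krt13, the keratin pair of the upper layers of non-cornified squamous epithelium, had 13944, 19222 and 18598 CPM (Krt4) and 12664, 16645 and 15931 CPM (Krt13). The striated muscle actin Acta1 had 9292, 8861 and 9252 CPM. The gastric mucin Muc5ac had no read in any input, and the intestinal brush border gene Vil1 did not pass 0.178 CPM. The inputs were not identical in make-up. Replicate 1 had 1402 CPM of the fast muscle myosin Myh2 against 418 and 291 in the others. The fast myosins Myh1 (1811, 3605 and 6997 CPM) and Myh4 (157, 1018 and 1175 CPM) ran the opposite way and were lowest in replicate 1. Replicate 3 had 150 CPM of the leukocyte gene Ptprc against 44.1 and 58.1. Bulk libraries cannot tell fewer cells of a type from less RNA per cell, and the part of these differences in any peak call was not tested.

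Peaks were spread unevenly over abundance, as the plot of shares by input class shows. CPM is a share of reads and is not divided by transcript length, so it says how much RNA the assay had to work with for a gene, not how many molecules there were. Methylated genes had a median of 23.5 CPM and unmethylated genes of 12.6 CPM, with 17.1 CPM for the genes between. From 1 to 5 CPM, 35.7% of 2646 genes were methylated. The share was 54.1% from 5 to 10 CPM and lay between 59.7% and 63.5% in the 5 classes from 10 to 500 CPM. At 500 CPM and over it was 45.3%, with 82 methylated and 82 unmethylated genes among 181. Leaving out the 11 mitochondrially encoded genes there, an alternative chosen after seeing the data, gave 48.2%. The dip at the top was present in each library: 50.8%, 49.7% and 48.6% of these 181 genes had a peak in IP 1, 2 and 3, against 66.1%, 69.3% and 65.3% of the 499 genes from 200 to 500 CPM.

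**Figure D1:**
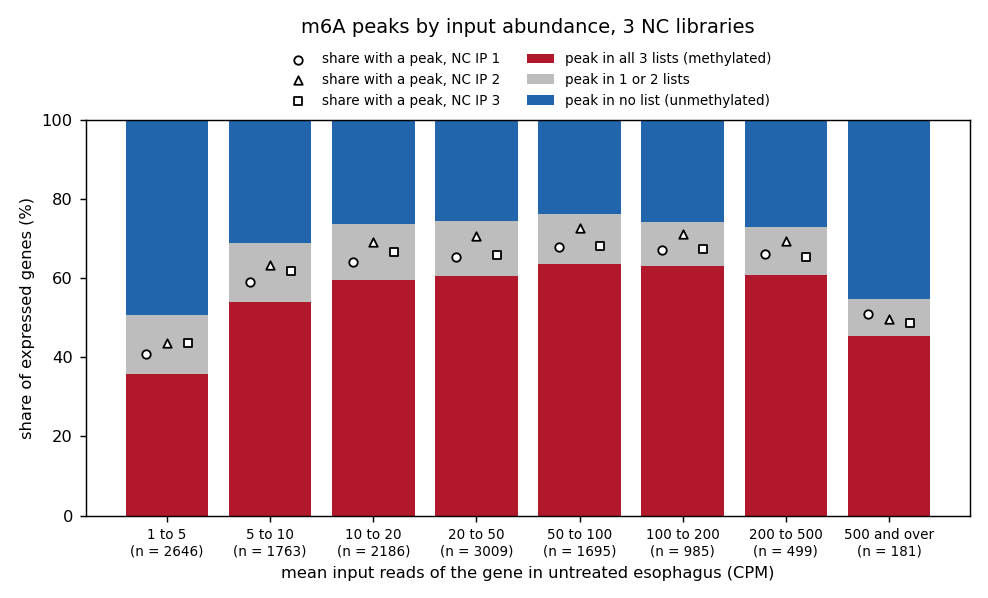
Shares of 12964 expressed genes of untreated esophagus (vertical axis, percent) that had an m6A peak in all 3 NC lists, in 1 or 2, or in none, by mean input CPM (horizontal axis), with white symbols for the share with a peak in each IP library. The methylated share is lowest from 1 to 5 CPM (35.7%), lies near 60% from 10 to 500 CPM and is 45.3% at 500 CPM and over.

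For every gene group below, the methylated share is set beside the share of all expressed genes at the same abundance, meaning the share expected if each member had the rate of its own CPM class. Of 19 gene lists, 9 lay above that share and 8 below it in each of the 3 libraries, and 2 lay on different sides in different libraries. The 8 include the mitochondrially encoded mRNAs, whose side was fixed in advance if the mitochondrial chromosome was not searched for peaks.

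Genes of the protein synthesis machinery had peaks less often than genes of like abundance. Of 72 expressed cytosolic ribosomal protein genes, which encode the proteins of both ribosomal subunits, 6 were methylated (8.33%) and 59 unmethylated, against 60.02% at the same abundance. In the IP libraries 12.5%, 15.3% and 8.33% of them had a peak, a mean of 12.04% ± 3.5 (SD, n = 3). Rpl7 had 765, 732 and 772 input CPM and Rpl4 had 695, 699 and 734, both without a peak in any list. The 6 methylated members were Rpl13a, Rps29, Rpl35, Rpl41, Rpl29 and Rps28, with 1 peak in most lists. Rpl13a, a large-subunit protein, had 254, 241 and 262 CPM and its peak stood at 13.18, 11.72 and 11.2-fold enrichment by the authors' caller. Ribosomal protein genes have many near-identical copies in the genome, and the sources used here do not say how reads shared between copies were counted.

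Translation factors followed the same direction, with 13 of 36 methylated (36.1%, against 59.0% at the same abundance). Eef1a1, the elongation factor that delivers aminoacyl-tRNA to the ribosome, had 2349, 2429 and 2577 CPM and no peak. The growth-related protein Tpt1 had 2159, 1791 and 1885 CPM and no peak. Members with and without peaks were found among close relatives. Eef1a2, the muscle and nerve form of Eef1a1, had 1 peak in each list at 470, 478 and 494 CPM. Eif3a, the largest scaffold subunit of initiation factor eIF3, had 7, 10 and 9 peaks at 377, 410 and 408 CPM, and Eif4g3, a scaffold of the cap-binding complex, had 12, 12 and 10 peaks at 291, 254 and 233 CPM, while its relative Eif4g2 had none at 1069, 1174 and 1233 CPM. The ribosomal translocase Eef2 had 1 peak in each list at 1633, 1525 and 1685 CPM.

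Among genes of energy metabolism, nuclear-encoded respiratory chain and ATP synthase subunits also had peaks less often than genes of like abundance. Of 68 nuclear-encoded subunits of the respiratory chain and ATP synthase, 29 were methylated (42.6%, against 60.7%). Their share with a peak varied between libraries, at 50%, 64.7% and 45.6%, and their difference from the share at the same abundance was -15.3, -5.18 and -20.2 percentage points. The ATP synthase subunits Atp5b (1074, 1057 and 1174 CPM) and Atp5a1 (585, 585 and 620 CPM) had no peak. Sdha, the catalytic subunit of succinate dehydrogenase, had 1 peak in each list at 339, 299 and 287 CPM. None of the 11 listed mitochondrially encoded mRNAs had a peak, although Mt-co1, cytochrome oxidase subunit 1, took 28274, 29781 and 26458 CPM. The list includes Mt-atp8, at 181, 208 and 159 CPM, so it is not the same set as the 11 genes at 500 CPM and over. The lists hold peaks on 21 chromosomes, with none on the mitochondrial chromosome, and the sources do not say whether that chromosome was searched. Of 20 glycolysis enzymes, 10 were methylated (50%, against 56.2%). This difference of -6.23 points rested on replicate 3, without which it was 2.28 points. Aldoa (2775, 2834 and 2461 CPM) and Gapdh (1411, 1485 and 1502 CPM), both enzymes of the central part of the pathway, had no peak, while the phosphofructokinase of muscle Pfkm had 2 peaks in each list at 1011, 853 and 853 CPM. Mitochondrial ribosomal proteins were not like the cytosolic ones: 45 of 70 were methylated (64.3%, against 57.9%). With only the upper 50% of each list by fold enrichment, that difference of 6.35 points was -4.85 points.

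Splicing factors and proteasome subunits were also methylated less often than genes of like abundance. Of 81 splicing factors, 33 were methylated (40.7%, against 60.04%), and the share with a peak was 46.9%, 55.6% and 46.9% in the 3 libraries. Prpf8, the core protein of the spliceosome's catalytic centre, had 382, 350 and 352 CPM and no peak, and neither had Sf3b1, which binds the branch point, with 340, 347 and 386 CPM. Hnrnpul1 had 4 peaks in each list at 161, 165 and 181 CPM. Of 42 proteasome subunits, 19 were methylated (45.2%, against 58.9%); the difference was -13.5, -1.31 and -11.8 points in IP 1, 2 and 3. Among the markers of endothelial, immune, neural and glial cells, 19 of 40 were methylated (47.5%, against 55.0%).

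**Figure D2:**
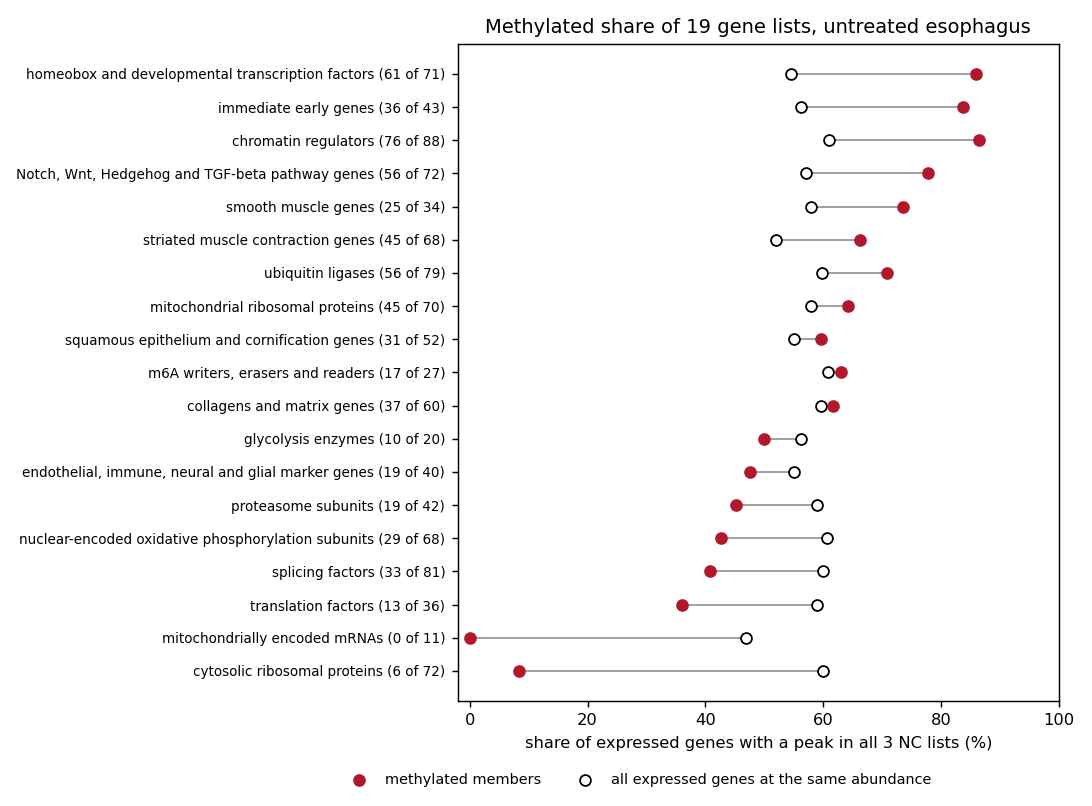
Share of expressed members with a peak in all 3 NC lists (horizontal axis, percent; filled points) and the share of all expressed genes at the same input abundance (open points) for 19 gene lists (vertical axis, with methylated and expressed members). Cytosolic ribosomal proteins (8.33% against 60.02%) lie farthest below and homeobox and developmental transcription factors (85.9% against 54.6%) farthest above.

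Regulators of transcription lay at the other end. Of 71 homeobox and developmental transcription factors, 61 were methylated (85.9%, against 54.6%), and 88.7%, 91.6% and 90.1% had a peak in the 3 libraries, a mean of 90.1% ± 1.41 (SD, n = 3). Their median was 16.2 CPM, between the medians of all unmethylated genes (12.6 CPM) and all methylated genes (23.5 CPM). Nfix, a nuclear factor I protein, had 5 peaks in each list at 205, 199 and 176 CPM, with the best at 88.0, 72.3 and 89.9-fold enrichment. Pax9, a transcription factor of esophageal and oral squamous epithelium, had 2, 2 and 1 peaks at 141, 163 and 181 CPM. Grhl2, a regulator of epithelial junction genes that belongs to the squamous list, had 4, 7 and 5 peaks at 35.9, 38.5 and 39.5 CPM. The 5 unmethylated transcription factors were Tbx15, Pbx3, Sox2, Klf16 and Meis3. Sox2, which helps specify the foregut epithelium, had 7.31, 5.69 and 6.54 CPM and no peak.

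Chromatin regulators had 76 of 88 members methylated (86.4%, against 60.9%), with a median of 3.33 peaks per methylated gene. The histone methyltransferases Ash1l (5, 6 and 5 peaks at 551, 547 and 515 CPM), Nsd1 (5, 4 and 5 peaks at 403, 413 and 447 CPM) and Kmt2d (4, 4 and 5 peaks at 384, 348 and 381 CPM) were the members with most input reads. The histone deacetylase Hdac2 and the acetyltransferase Kat2b had no peak, at 106, 98.3 and 93.7 CPM (Hdac2) and 116, 164 and 157 CPM (Kat2b).

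Immediate early genes, whose short-lived mRNAs are induced within minutes of a stimulus, had 36 of 43 members methylated (83.7%, against 56.2%). Most had few peaks, with a median of 1 per methylated gene, but their peaks ranked high. The median of each gene's best peak lay in the top 17.6% of its list, where the median over all methylated genes lay in the top 30.1%. Such a place was not particular to them. It was 15.8% for developmental transcription factors, 16.7% for m6A writers, erasers and readers and 18.1% for chromatin regulators. Klf4, a transcription factor of squamous differentiation, had a best peak of 63.0, 57.6 and 63.0-fold enrichment at 197, 220 and 245 CPM. Jun, a subunit of AP-1, had 1 peak in each list, of 55.6, 40.7 and 47.8-fold, at 87.9, 90.7 and 71.4 CPM. Socs3, an inhibitor of cytokine signalling, had 1.96, 1.66 and 2.72 CPM and still a peak of 72.5, 39.8 and 67.8-fold in each list. The 2 unmethylated members were the kinase Sgk1 and the matricellular gene Ctgf.

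Of 72 genes of the Notch, Wnt, Hedgehog and TGF-beta pathways, 56 were methylated (77.8%, against 57.2%). They included the BMP receptor Bmpr2 (2 peaks in each list), the Wnt co-receptor Lrp6 (5, 4 and 5 peaks), the Wnt pathway inhibitor Apc (4, 3 and 2 peaks) and the Notch effector Rbpj (1, 3 and 3 peaks). The TGF-beta co-receptor Tgfbr3 (132, 104 and 111 CPM) and the SMAD ubiquitin ligase Smurf2 (108, 102 and 90.1 CPM) had none. Ubiquitin ligases as a list had 56 of 79 members methylated (70.9%, against 59.8%). Ubr4 had 2 peaks in each list at 491, 476 and 545 CPM, while Nedd4 had 1362, 1360 and 1409 CPM and no peak.

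Symbol families, compared after their values were seen, lay on both sides. Among 80 families with at least 15 expressed members, 43 lay above the share at the same abundance and 37 below. All 36 expressed genes with a Zbtb symbol, transcription factors that join a BTB domain to zinc fingers, were methylated (100%, against 55.6%). They include Zbtb8os, which is named for its place on the strand opposite Zbtb8. They ran from Zbtb20, with 305, 252 and 272 CPM, to Zbtb3, with 2.76, 2.67 and 1.84 CPM. Zinc finger genes named Zfp had 194 of 226 methylated (85.8%, against 54.6%). Semaphorins, guidance ligands of axons and vessels, had 17 of 18 methylated (94.4%, against 58.1%), led by Sema3c with 5, 4 and 4 peaks at 247, 231 and 200 CPM. The exception was Sema4f at 2.41, 2.67 and 0.749 CPM. Histone lysine demethylases (Kdm) had 13 of 15 methylated (86.7%, against 62.2%) and none unmethylated. On the low side stood the histone genes named Hist, with 4 of 22 methylated (18.2%, against 45.7%), and keratins, with 4 of 16 (25%, against 47.7%). Histone genes share nearly identical sequence within their clusters, so their single values are uncertain.

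In the gene annotation that accompanies the authors' tables, 198 of 470 terms with at least 40 expressed genes lay above the share at the same abundance and 272 below. Of 122 expressed genes annotated with sequence-specific RNA polymerase II transcription factor activity, 99 were methylated (81.1%, against 55.1%), and of 48 genes of the Cul3-RING ubiquitin ligase complex 37 were (77.1%, against 55.8%). Of 41 genes annotated with NAD binding 8 were methylated (19.5%, against 59.7%), of 42 genes of glutathione metabolism 12 (28.6%, against 56.6%), and of 55 genes of amino acid biosynthesis 14 (25.5%, against 55.3%). These 5 terms were also chosen after their values were seen.

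The tissue's own structural genes were mixed. Of 52 genes of squamous epithelium and cornification, 31 were methylated (59.6%, against 55.1%). The main keratins differed. Krt4 had 2 peaks in every list, a 215-bp peak at chr7:141319273-141319487 of 9.31, 9.56 and 10.1-fold enrichment and a 489-bp peak at chr7:141320678-141321166 of 6.59, 7.81 and 11.5-fold. Krt13, its partner in the same cells, had no peak in any list at a like number of input reads. The basal layer keratins Krt5 (388, 631 and 539 CPM) and Krt14 (234, 259 and 302 CPM) and the progenitor keratin Krt15 (542, 528 and 615 CPM) also had none. Cell junction genes were mixed as well. Dsp, which anchors keratin filaments to desmosomes, had a 3234-bp peak at chr17:29202519-29205752 in every list, of 68.3, 56.0 and 75.3-fold, at 4027, 4979 and 4426 CPM. The cornified envelope protein Ppl had 4, 4 and 3 peaks, and the desmosomal cadherin Dsg1 had 1, 2 and 2. The desmosomal plaque gene Jup (463, 606 and 545 CPM) had none, and the plakophilin gene Pkp1 (833, 1128 and 1056 CPM) had a peak in IP 1 only. Coordinates are those of the lists counted from 1, on a genome build that the sources used here do not name.

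Muscle genes had peaks more often than genes of like abundance. Of 68 genes of striated muscle contraction 45 were methylated (66.2%, against 51.9%), and of 34 smooth muscle genes 25 were (73.5%, against 57.9%), with 82.4% having a peak in each of the 3 libraries. For members of any list at 500 CPM and over, the share used was 45.3%. It was 48.2% without the mitochondrially encoded genes, and the lists were not set beside that value. The giant sarcomere protein genes had few peaks for their read numbers. Ttn, which spans the sarcomere from Z-disc to M-line, had 29858, 24722 and 28155 CPM and 2 peaks in each list, of which 1, a peak of 84 bp, was present in all 3. Neb, the ruler of the thin filament, had 13, 9 and 9 peaks at 27035, 22398 and 20461 CPM. The calcium pump Atp2a1 (4090, 4425 and 4597 CPM) and the creatine kinase Ckm (2505, 2602 and 3171 CPM) had none. Of the regulators of muscle identity, Myod1 (8.03, 3.68 and 8.44 CPM) and Myog (20.8, 15.3 and 22.1 CPM) had none, while Myf6 had 1 peak in each list at 43.3, 37.4 and 23.4 CPM and Mef2c had 3 in each list at 1278, 1159 and 1198 CPM. Myh8, the perinatal myosin heavy chain, had 2, 4 and 3 peaks at 31459, 27626 and 25089 CPM, of which 1, a peak of 390 bp, was present in all 3 lists, and myosin heavy chains share stretches of sequence. In smooth muscle, Myh11 had 11, 12 and 13 peaks at 1401, 1084 and 958 CPM, the intermediate filament gene Synm had 4 in each list, and Tagln (293, 272 and 210 CPM) and Vcl (394, 380 and 341 CPM) had none.

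Collagens and matrix genes lay at the level of other genes, with 37 of 60 methylated (61.7%, against 59.7%), and differed from it in opposite directions between libraries. Col3a1 (1751, 1557 and 2831 CPM) and the proteoglycan Dcn (1405, 1435 and 1572 CPM) had no peak. Col1a1 had 1 peak in each list, of 6.35, 4.53 and 6.38-fold, at 440, 476 and 831 CPM, and the fibrillin gene Fbn1 had 3, 2 and 2 peaks.

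**Figure D3:**
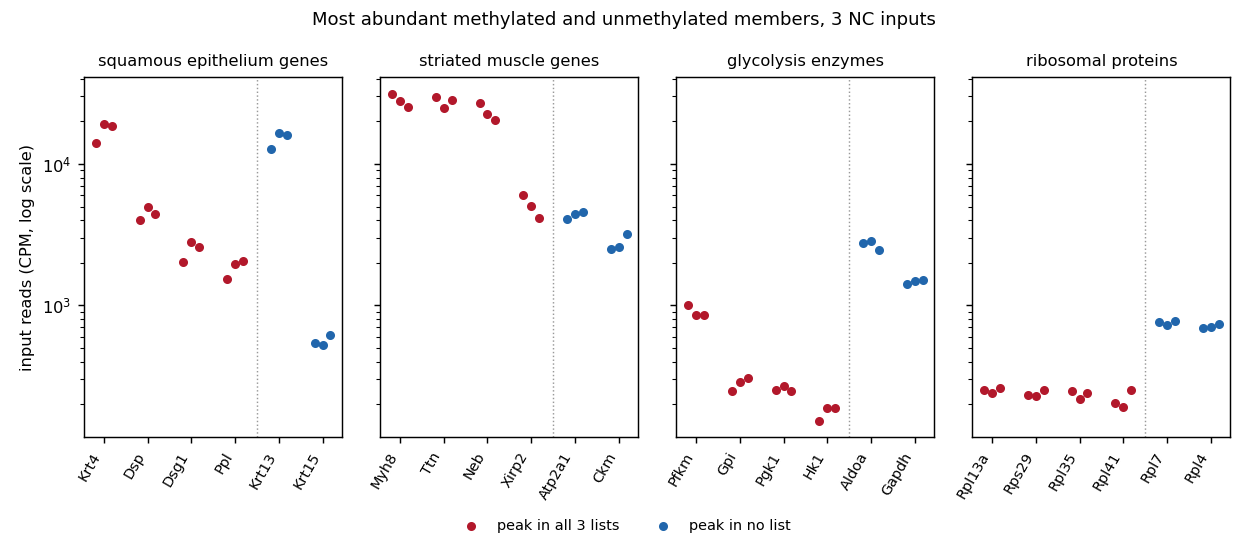
Input reads in each of 3 NC inputs (vertical axis, CPM on a log scale; points left to right are replicates 1 to 3) for the members with most reads in 4 gene lists, methylated left of the dotted line and unmethylated right of it. Krt4 and Krt13 had like read numbers with and without peaks, and the unmethylated Aldoa, Gapdh, Rpl7 and Rpl4 lie above every methylated member shown of their lists.

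The genes that write, erase and read the mark were themselves methylated about as often as other genes, 17 of 27 (63.0%, against 60.9%). Of the writer complex, Zc3h13, which helps hold it in the nucleus, had 9, 12 and 11 peaks at 96.0, 99.5 and 102 CPM, the best of 140, 184 and 141-fold enrichment. Its partner Wtap had 7, 7 and 8 peaks at 43.4, 42.5 and 49.9 CPM. The catalytic subunit Mettl3 had 2 peaks in each list at 22.3, 16.5 and 19.5 CPM, and Mettl14 had 1, 4 and 1 at 41.4, 38.0 and 36.9 CPM. Of the erasers, Fto had 2, 3 and 2 peaks at 77.2, 62.6 and 56.4 CPM and Alkbh5 had 1 in each list at 34.9, 38.1 and 38.7 CPM, of 62.0, 44.7 and 61.1-fold. The YTH readers Ythdf1, Ythdf2, Ythdf3, Ythdc1 and Ythdc2 were all methylated, led by the nuclear reader Ythdc1 with 8, 8 and 6 peaks. The 7 unmethylated members were Fxr2, Elavl1, Rbmx, Fmr1, Mettl5, Hnrnpc and Zcchc4.

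Most methylated genes had few peaks. The mean was 2.08, 2.27 and 2.12 peaks per methylated gene in the 3 lists, or 2.15 ± 0.10 (SD, n = 3). A share of 47.2%, 39.7% and 44.7% had 1 peak, and 2350 genes (33.1%) had exactly 1 in each list. The count was the same in all 3 lists for 3837 genes (54.0%). Peak number was higher in the classes with more input reads, with a mean of 1.45 from 1 to 5 CPM, 2.27 from 20 to 50 CPM, 3.12 from 200 to 500 CPM and 3.01 at 500 CPM and over. Between 23 and 36 genes per list had 10 or more peaks.

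Trdn, which encodes triadin of the muscle calcium release complex, had the most, with 28, 28 and 27 peaks at 208, 183 and 191 CPM. Its peaks were short, from 18 to 254 bp, and reached 149, 92.7 and 128-fold enrichment. The kinase anchor Akap9 had 18, 19 and 19 peaks, the cytoskeletal linker Dst had 14, 15 and 13, and the centrosome scaffold Pcnt had 13, 12 and 11. Tnrc18, Myo18b, Myh11, Eif4g3 and Golim4 were also among the 10 genes with most peaks.

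**Figure D4:**
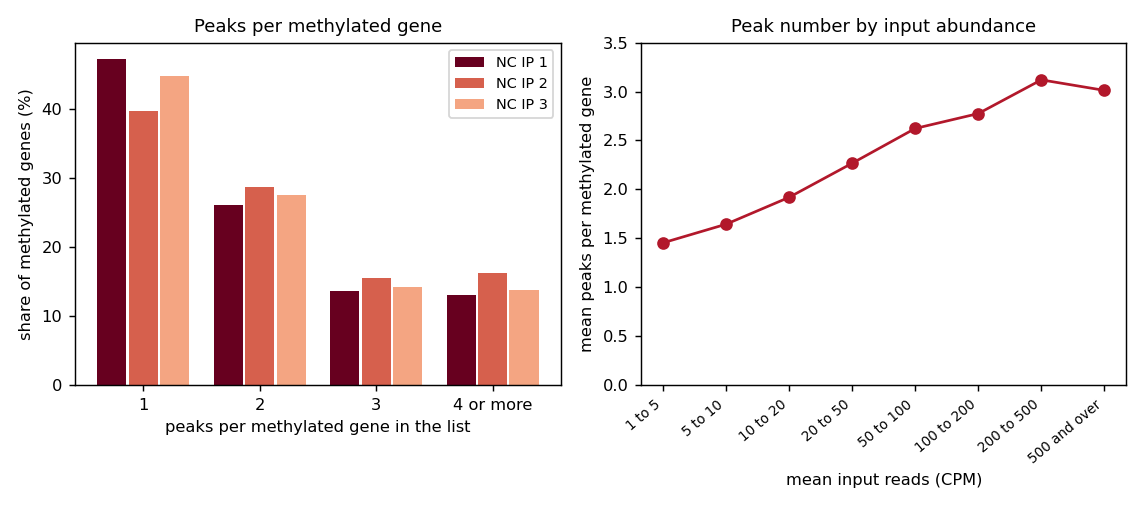
Left: share of the methylated genes of untreated esophagus (percent) with 1, 2, 3 or 4 and more peaks in each IP list. Right: mean number of peaks per methylated gene over the 3 lists against mean input CPM class; it is 1.45 from 1 to 5 CPM and 3.12 from 200 to 500 CPM.

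Peak lengths had a particular form. The median length in methylated genes was 357, 294 and 342 bp, or 331 ± 32.9 bp (SD, n = 3). Of 22096 regions obtained by joining overlapping peaks, 13528 (61.2%) were present in all 3 lists. Of the 13442 regions with 1 peak in each list, 82.0% had the same start and the same end to the base in all 3, 17.0% shared 1 end, and 1.04% shared none. Peak_length is therefore read here as the length of a fixed unit within which enrichment was called, and not as the extent of a methylated site; the sources do not say what set these units. Peaks under 200 bp made up 34.8%, 39.3% and 35.4% of the lists, and their median place by fold enrichment was 65.7%, 64.8% and 65.2% from the top. Peaks over 1000 bp made up 21.5%, 17.9% and 20.9%, with a median place of 31.8%, 28.9% and 30.1% from the top.

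Among the longest peaks were those in genes known for giant exons. The actin-binding muscle gene Xirp2 had a 9325-bp peak in each list, the scaffold gene Ahnak an 8269-bp peak, the muscle gene Cmya5 an 8178-bp peak and the microtubule gene Map1a an 8104-bp peak. In each of these 4 genes the length was the same in all 3 lists.

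Fold enrichment, the authors' value for each peak, was used to rank peaks within a list. The highest mean place belonged to Ahnak, whose 129-bp peak at chr1:232122559-232122687 had 1073, 1353 and 1749-fold enrichment, the second highest value of list 1 and the highest of lists 2 and 3. Its 8269-bp peak at chr1:232138272-232146540 had 24.1, 23.6 and 25.6-fold. Ahnak had 11836, 12890 and 13064 input CPM. Snrnp70, which encodes the U1 snRNP protein, followed with 534, 588 and 329-fold at 119, 115 and 129 CPM, then the Wnt inhibitor Dkk2 with 369, 489 and 417-fold at 56.4, 96.7 and 94.0 CPM. The others of the first 10 were Ppp1r9b, Arih2, Eif3j, Bccip, Scand1, Mbtps1 and Naa30. Scand1 had 0.446, 1.13 and 1.5 input CPM, so a high rank did not need many input reads, and for such a gene the input behind the ratio is small. Methylated genes had a median best place of 30.1% from the top, against 72.7% for genes with a peak in 2 lists and 81.5% for genes with a peak in 1 list. This order is partly built in, because genes with weak peaks can miss a list. A best place is also taken over all peaks of a gene, and their number differs between genes.

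Genes on the X chromosome stood apart, a comparison added after the values were seen. With chromosomes from RefSeq (GRCr8) by gene ID, 12111 of the expressed genes (93.4%) had a place. Of 389 X-linked genes, 149 were methylated (38.3%, against 54.8% at the same abundance) and 180 unmethylated (46.3%). The difference was -16.5 points. On the 20 autosomes it ran from -1.61 to 9.6 points, and 57.1% of all autosomal genes were methylated. The share at the same abundance was taken over all 12964 expressed genes, with or without a place, of which 54.8% were methylated. In the 3 libraries 43.4%, 47.3% and 45.0% of X-linked genes had a peak, against 59.6%, 64.0% and 61.2% at the same abundance, a mean difference of -16.4 ± 0.28 points (SD, n = 3). Peaks on the X chromosome made up 1.99%, 1.95% and 1.98% of the lists, while 3.21% of the placed expressed genes were X-linked.

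Median input was 19.5 CPM for X-linked and 20.4 CPM for autosomal genes. The gap was present in all 8 abundance classes, but the highest classes held few X-linked genes. The share was 26.6% against 35.7% from 1 to 5 CPM and 38.6% against 60.4% from 20 to 50 CPM. From 50 to 100 CPM it was 52.9% against 63.5%, and from 100 to 200 CPM 5 of 23 genes (21.7%) against 63.1%. From 200 to 500 CPM it was 4 of 11 genes (36.4%) against 60.7%. At 500 CPM and over it was 2 of 5 genes (40%) against 45.3%, too few to carry a direction. In 4 stretches of equal length along the chromosome the methylated share was 39.0%, 39.1%, 38.5% and 36.7%. Taking gene span as a second class beside abundance left the difference at -16.6 points. X-linked genes that were methylated had a median of 1.33 peaks and a median best place of 40.7% from the top, against 1.67 peaks and 29.7% on autosomes. Those with most input reads were the actin crosslinker Flna (1148, 986 and 916 CPM, 1 peak in each list), the deubiquitinase Usp9x (790, 799 and 811 CPM, 2, 2 and 1 peaks), the cohesin subunit Stag2 (315, 321 and 338 CPM, 1 peak in each list) and the actin-binding peptide gene Tmsb4x (269, 288 and 397 CPM, 2, 2 and 1 peaks). Among the unmethylated ones with many input reads was the LIM domain protein gene Fhl1 (3414, 2718 and 1875 CPM). Others were the RNA helicase gene Ddx3x (535, 549 and 574 CPM) and the epithelial junction gene Pof1b (389, 527 and 484 CPM). The ribosomal protein gene Rpl10 (361, 368 and 423 CPM) was also among them. The sex of the rats is not in the labels, and its part in the gap was not tested.

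**Figure D5:**
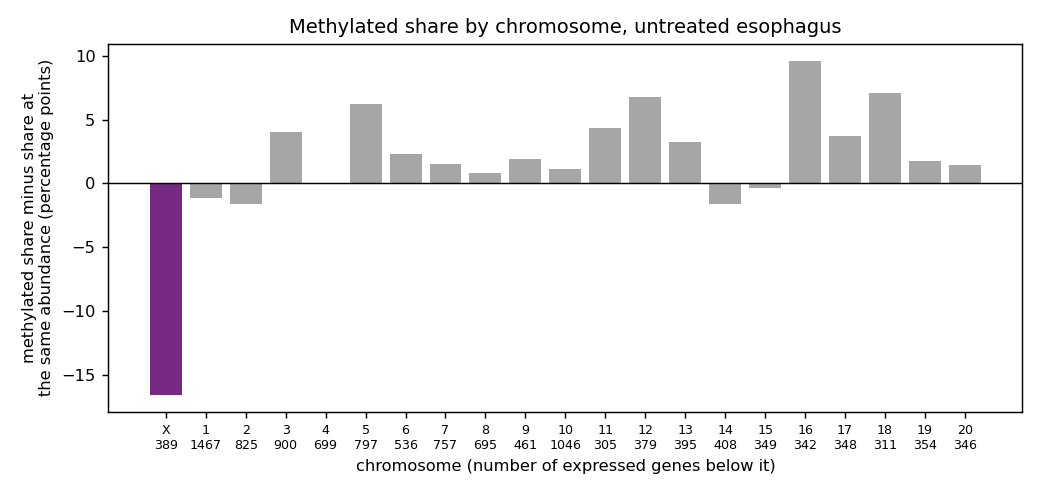
Methylated share of expressed genes minus the share at the same input abundance (vertical axis, percentage points) for the X chromosome and the 20 autosomes (horizontal axis, with the number of expressed genes). The X lies at -16.5 points, and the autosomes between -1.61 and 9.6 points.

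Longer genes had peaks more often. Of 1369 genes spanning under 5 kb from start to end of the gene in RefSeq, 47.8% were methylated, against 51.4% at the same abundance. Of 1826 genes spanning 100 kb and over, 62.1% were, against 56.4%. Here too, the share at the same abundance was taken over all expressed genes, placed or not. A span includes introns, so it is not the length of the transcript, which was not analysed here. With span as a second class beside abundance, the difference of the cytosolic ribosomal proteins was -27.8 points (8.45%, against 36.2%), that of the respiratory chain subunits -9.83 points and that of translation factors -12.6 points, where abundance alone gave -51.7, -18.0 and -22.9 points. Splicing factors lay at -18.6 points and glycolysis enzymes at -1.71 points. On the high side, immediate early genes, whose median span was 3760 bp, lay 31.3 points above, developmental transcription factors 28.3 points and chromatin regulators 18.4 points.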

How the data were processed

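Esophageal tissue of untreated rats (NC) was measured in 3 input and 3 m6A IP libraries, prepared, per the labels' protocols, from total RNA with kits for m6A immunoprecipitation and for low-input libraries of whole RNA. The submitters' processing notes name cutadapt (version 1.9.3) and HISAT2 (version 2.0.4). The build, the annotation, the read counter and its strand setting, and the peak caller's version and control are unstated in the sources. The authors deposited whole-number counts of reads per gene for the inputs, which were scaled to counts per 1000000 reads counted (CPM), and normalized columns whose values look like log2 CPM with a floor of -2.96, used only as an alternative. Per the file headers, each peak list gives position, Peak_length, a score (-10 times log10 of p, at least 50 in every list) and a fold enrichment. The other 6 columns, of the operated rats, were left out.

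Of 17450 genes, 32 had no symbol, and for 210 symbols shared by several genes the gene with most counts was taken. Peaks were joined to genes by exact name. The share at the same abundance used CPM classes with limits of 1, 5, 10, 20, 50, 100, 200 and 500. Overlapping peaks (1 bp or more) were joined into regions. Intervals between the 3 libraries are SDs, and since the reads carry no molecular identifiers they do not each stand for a molecule. The number of input reads limits precision for genes near 1 CPM, which is about 11 to 17 reads. Pearson correlations of log2 CPM between inputs were 0.96 to 0.97, and no library was a copy of another (chi-square of 17.9 to 24.7 for each gene).

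Genes were named by a rule: the 10 unmethylated genes with most reads, the 10 with most peaks, the 10 with the best place by fold enrichment, the 5 with the longest peak, from each list the 4 methylated and 2 unmethylated members with most reads, and 2 of either kind in each class from 50 CPM up. Others named complete a small count or were chosen after their values were seen. The members, lists and comparisons were chosen with earlier results of these data known. Scripts were tested on simulated data. Python 3.11.15, pandas 2.3.3, NumPy 2.4.6, matplotlib 3.10.9 and, for TMM scaling, edgeR 4.0.16 in R 4.3.3 were used. Alternatives covered the peak criterion, peak strength, count filter, scaling, classes, name matching, gene span and each replicate left out. Sequences of peak regions were not analysed here, and some genes that the rule names are not reported here.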

Additional observations from a re-analysis of the deposited data

How the results depend on the processing

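The counts of 7103 methylated and 4072 unmethylated genes stayed within 1.5 times of themselves under the alternatives run, except with the upper 50% of each list by fold enrichment (4487 and 6601) and, for unmethylated genes, with no count filter (7688). With 2 of 3 lists enough, 41.9% of the lowest and 49.2% of the highest abundance class were methylated, with 2.01 peaks per methylated gene, an X-chromosome difference of -17.5 points and a difference of 4.79 points at 100 kb and over. With a score of at least 100 these were 31.3%, 43.1%, 1.98 peaks and -16.1 points, with -2.43 points under 5 kb and a peak length of 407 bp. With the upper 50% by fold enrichment they were 20.03%, 29.3% and 1.60 peaks, with -0.946 points under 5 kb, 572 bp and 6594 regions in all 3 lists, and mitochondrial ribosomal proteins lay at -4.85 points, the opposite direction. Without a count filter the lowest class, then under 1 CPM, stood at 7.39%, the X at -13.1 points and spans at -1.70 and 4.22 points. From 5 CPM up there were 2.26 peaks, and the differences were -18.4 points (X), -9.31 points (under 5 kb) and 8.32 points (100 kb and over). The deposited normalized values gave 32.1% for the lowest class, and 10 classes of equal size 28.8% and 60.3% for the lowest and highest. Of the alternatives chosen after seeing the data, matching peaks also by gene ID gave -17.1 points (X) and 4.83 points (100 kb and over), proper symbols only -17.7 points (X), and leaving out mitochondrially encoded genes 48.2% for the highest class. Leaving out each replicate gave 36.04% to 38.8% for the lowest class, 44.4% to 46.7% for the highest, -17.6 to -16.6 points for the X, and -8.43 to 2.28 points for glycolysis enzymes, whose direction turned without replicate 3. The cause of these shifts was not tested. Of the 17 lists on the same side in all 3 libraries, 15 kept their direction under every alternative run for them, and the other 2 are the mitochondrial ribosomal proteins and glycolysis enzymes above. The 15 include the mitochondrially encoded mRNAs, which had no peak in any list and so could not change direction. No paired analysis was possible because the values come from 1 group and no test. Coding length was not run as an alternative.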

Other observations

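Of 4222 genes under 1 CPM in the inputs, 312 (7.39%) had a peak in all 3 lists, among them 15 of the 815 genes with no counted read in any input. Of 7728 names with a peak in all 3 lists, 313 were not names of the expression table. Of the genes with a peak in only 1 list, 183, 530 and 249 had it in IP 1, 2 and 3. IP 2 had the most peaks (18864), the lowest median fold enrichment (9.18, against 13.4 and 11.6 in IP 1 and 3) and the shortest median peak (291 bp, against 363 and 352 bp).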
